A study of Bos taurus with 6 samples.

Results

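The genes described here are 43 bovine genes of double-stranded RNA sensing and of the interferon response. They were chosen by symbol for their known roles as sensors, adaptors and kinases, interferon receptors or transcription factors. Other roles were parts of the ISG15 system, antiviral effectors, PARP-family genes with DTX3L, and nuclear-body and TRIM genes. The deposited table of 23475 genes listed 42 of them, and BST2 was not analysed here. Of these, 41 reached a mean level of 0.5 FPKM across all 6 libraries and were tested together with every other gene at or above it, 12422 genes in total. SP100 lay just below this level with a mean of 0.482 FPKM and was not tested, and ISG20 lay just above it with 0.602 FPKM.

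The cells were bovine preadipocytes isolated from the subcutaneous fat of calves, grown in serum-containing medium and transfected for 48 h. The agomir group (n = 3) received an agomir of bta-miR-484, a chemically modified double-stranded RNA that mimics the microRNA. The agomir NC group (n = 3) received a negative-control agomir, so both groups were given a double-stranded RNA by transfection. Untreated cells were not analysed here, and a response common to both groups could therefore not be measured. Whether the replicates were separate calves or separate cultures is not given in the sources used here, so p-values measure the spread between these samples, which may be technical. Expression was given as FPKM, sequenced fragments scaled by transcript length and by library size, which can be compared between genes. Values of a group are given in the order of replicates 1, 2 and 3. These values carry no read counts, so the depth behind each value is unknown. In bulk RNA, fewer expressing cells and less RNA per cell cannot be told apart.

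Cells recognise double-stranded RNA through TLR3 in endosomes and through RIG-I and MDA5 in the cytoplasm, which signal by TICAM1 and MAVS to the kinases TBK1 and IKBKE and to the factors IRF3 and IRF7. The type I interferons made in response bind IFNAR1 and IFNAR2, and a complex that holds STAT2 and IRF9 then switches on interferon-stimulated genes such as ISG15, MX1 and RSAD2. Fibroblast-like cells, preadipocytes among them, carry this system, and many of its genes are known to be expressed at a low level without infection.

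The labels call the cells adipocytes, while mesenchymal markers were high in them and markers of mature fat cells were low. All 10 preadipocyte and mesenchymal markers were tested, led by COL3A1, and their summed level was 28665, 29816 and 28749 FPKM in the agomir libraries and 28649, 29955 and 29369 FPKM in the agomir NC libraries. Of 6 markers of mature fat cells, 3 were tested and the sum did not exceed 6.18 FPKM in any library, with ADIPOQ at most at 0.197 FPKM. Of 14 immune markers, 4 were tested, the most abundant was CD14, PTPRC did not exceed 0.119 FPKM, and TYROBP and MS4A1 were listed at 0 in all 6 libraries. Their summed level was 10.2, 10.6 and 8.84 FPKM with the agomir and 10.8, 10.5 and 10.3 FPKM in agomir NC, with agomir replicate 3 the lowest. FCER1G, an immune marker, stood at 0.668, 0.999 and 0.717 FPKM against 1.18, 1.04 and 1.48 FPKM, and its groups did not overlap (log2 fold change −0.42 ± 0.16, SE, limma with Benjamini-Hochberg adjusted p = 0.389). The other 3 immune markers tested overlapped between the groups, with log2 fold changes of 0.19 for CD68, −0.055 for CD14 and −0.017 for NCF1. Of the mesenchymal markers, DCN and ENG also lay lower in all 3 agomir libraries, as did 6.36% of all genes tested. DCN stood at 2840, 2899 and 2850 FPKM against 2991, 3102 and 3248 FPKM (log2 fold change −0.12 ± 0.043, SE, limma with Benjamini-Hochberg adjusted p = 0.376). ENG stood at 54.2, 53.7 and 54.0 FPKM against 56.3, 58.2 and 56.5 FPKM (log2 fold change −0.078 ± 0.040, SE, limma with Benjamini-Hochberg adjusted p = 0.521). The other mesenchymal markers overlapped between the groups. Their log2 fold changes were 0.062 for COL1A1, 0.048 for COL1A2 and 0.014 for PDGFRB, and from −0.11 for THY1 to −0.013 for PDGFRA in the rest. Higher in all 3 agomir libraries was the fat cell marker CIDEA, at 1.240, 1.292 and 1.5005 FPKM against 1.225, 1.225 and 1.137 FPKM (log2 fold change 0.12 ± 0.12, SE, limma with Benjamini-Hochberg adjusted p = 0.763). Of all genes tested, 10.9% were likewise higher in all 3 agomir libraries. PLIN1 and GPD1, the other fat cell markers tested, overlapped between the groups, with log2 fold changes of 0.14 and −0.072. The part of these cells in the results that follow was not tested. Of 6 endothelial markers, 2 were tested, with sums from 3.77 to 4.54 FPKM. None of 5 epithelial markers was tested, and their sum stayed at or below 0.379 FPKM. Pericyte and smooth muscle markers, 3 of 6 tested, summed to between 211.1 and 240.4 FPKM, mainly from ACTA2.

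Single libraries stood apart in the interferon-stimulated members. Over all 41 members tested, agomir NC replicate 3 was the highest library for 28 (68.3%), against 19.4% of all genes tested, and agomir replicate 2 the lowest for 19 (46.3%), against 14.7% of all genes tested. On the scale of log2(FPKM + 0.5), the median deviation of the 41 members from their mean over the 6 libraries was 0.0092, −0.14 and 0.0051 in the agomir libraries and −0.058, −0.084 and 0.18 in the agomir NC libraries. The spread was wider in part of the roles. The 20 tested genes of the ISG15 system, the effectors and the PARP family with DTX3L were pooled after their values were seen. They summed to 241.7, 187.6 and 243.6 FPKM in agomir replicates 1, 2 and 3. In agomir NC replicates 1, 2 and 3 the sums were 225.9, 201.4 and 315.7 FPKM. Replicate 2 was thus the lowest library of each group, agomir NC replicate 3 was the highest of all, and the groups overlapped. Agomir NC replicate 3 was the highest library for 18 of these 20 genes (90.0%). Agomir replicate 2 was the lowest for 14 of the 20 (70.0%), and agomir NC replicate 2 was the lowest for 4 of them. The median deviation of the 20 genes, on the same scale, was 0.030, −0.28 and 0.076 in the agomir libraries and −0.057, −0.26 and 0.58 in the agomir NC libraries. Over all genes tested the same medians lay between −0.016 and 0.021.

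**Figure D1:**
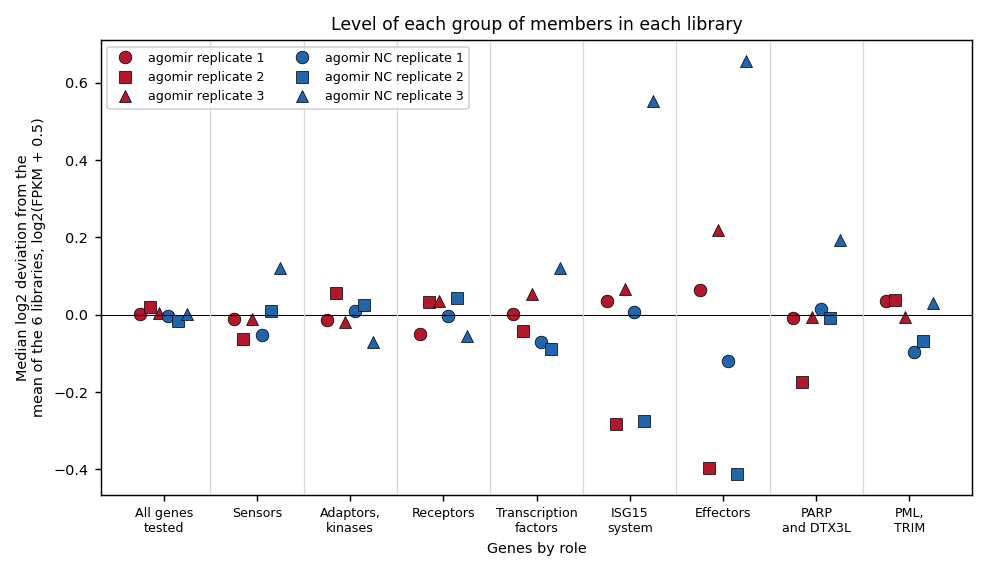
Median deviation (vertical axis, log2(FPKM + 0.5)) of the genes of each role from their mean over the 6 libraries (horizontal axis: all genes tested and the roles of the members), with 1 symbol per library, coloured by group and shaped by replicate number. The symbols spread for the ISG15 system and the effectors, where agomir NC replicate 3 reaches 0.55 and 0.66 and replicate 2 of both groups lies at or below −0.28.

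The slope of expression over gene length also differed between these libraries. The trend of expression with gene span, the length of the gene in the genome, had a slope of 0.015 log2 units per doubling of span in agomir replicate 2 and −0.0148 in agomir NC replicate 3, while the other libraries lay between −0.0015 and 0.0028. After the trend was removed from each library, the medians of the 20 genes were 0.028, −0.30 and 0.077 with the agomir and −0.051, −0.24 and 0.57 with agomir NC.

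Between the groups, few members differed. At an unadjusted p under 0.05 in the moderated test of limma, which borrows the spread between samples across all genes, 1 of 41 members was higher with the agomir (TRIM25), against 6.63% of all genes tested. On the other side 1 of 41 members was lower (PARP9), against 4.31% of all genes. No member passed an adjusted p of 0.05 (limma, Benjamini-Hochberg over all 12422 genes), and the smallest adjusted p of a member was 0.218. Of all genes, 1 passed (0.00805%). The 3 agomir libraries all lay above the 3 agomir NC libraries for 1 member, against 10.9% of all genes, and all below for 2 members, PARP9 and IFNAR2, against 6.36% of all genes. Median-ratio scaling of the libraries left TRIM25 and PARP9 as the members past the unadjusted threshold, but changed the split over all genes from 824 higher and 535 lower to 673 higher and 688 lower. In the fit reported, each of these shares of the members was at or below that of all genes.

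The direction of the members as a list rested on single libraries. Their median log2 fold change of agomir over agomir NC was −0.036, with 13 members above 0 and 28 below, beside a median of 0.013 over all genes tested. Without agomir replicate 2 the median of the members was 0.012, and without agomir NC replicate 3 it was 0.042, with 25 above 0 and 16 below. The count of higher members was 2 without agomir replicate 3, where IKBKE joined TRIM25 and 651 of 12431 genes were higher. It was 2 without agomir NC replicate 2, again with IKBKE, beside 656 of 12421 genes. Without agomir NC replicate 3 it was 3, with IRF2 and ISG20, beside 736 of 12415 genes. The count of lower members was 2 without agomir NC replicate 1, where IFIH1 joined PARP9 and 595 of 12403 genes were lower. It was 4 without agomir NC replicate 2, where DHX58, PARP14 and UBA7 joined, beside 533 of 12421 genes. No member passed the adjusted threshold of limma with Benjamini-Hochberg adjustment in any of these fits.

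**Figure D2:**
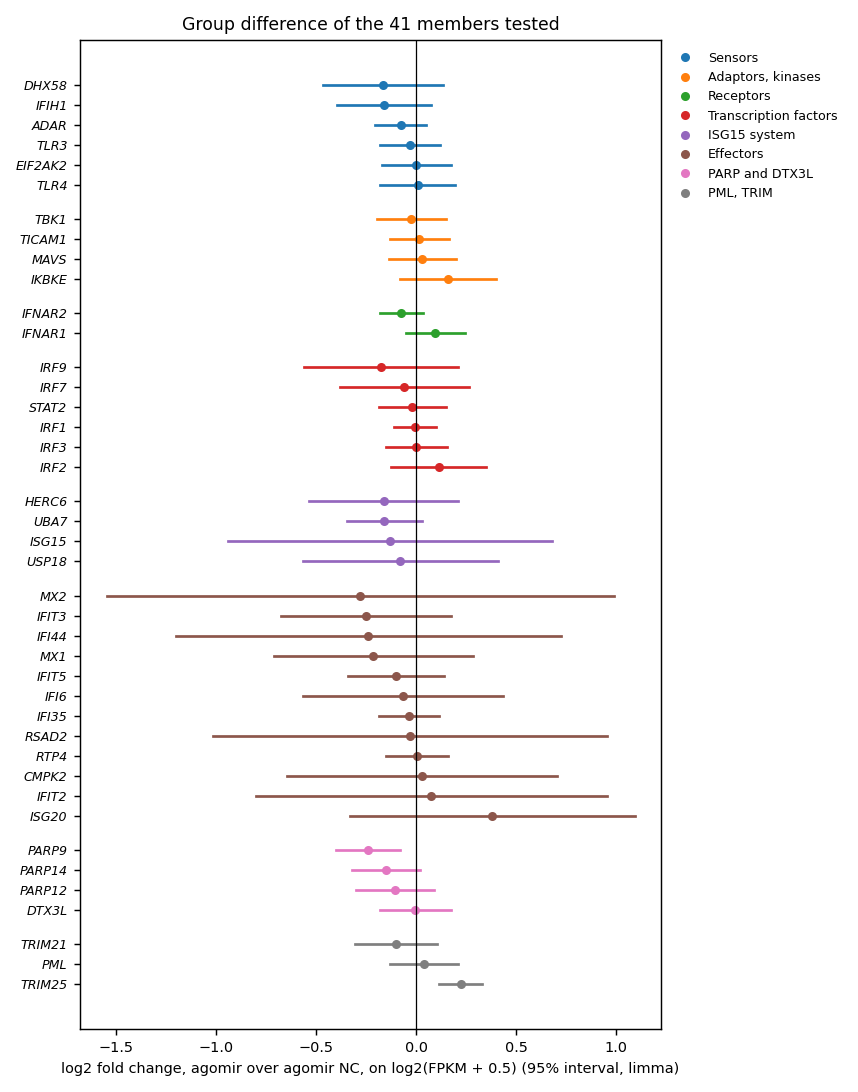
Log2 fold change of agomir over agomir NC (horizontal axis, on log2(FPKM + 0.5); points) with its 95% interval from limma (lines) for the 41 members tested (vertical axis), coloured by role. Only the intervals of TRIM25 and PARP9 leave out 0, and the intervals of MX2, RSAD2, IFI44, IFIT2 and ISG15 are the widest.

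The interferon genes themselves were at or near 0. Of 13 interferon ligand genes looked for by symbol, 11 were in the table, none reached the level needed for a test, and 7 were listed at 0 in all 6 libraries. The highest value of any of them was 0.216 FPKM, for IFNB1, which encodes interferon beta. Agomir replicates 1, 2 and 3 had 0.216, 0.064 and 0.177 FPKM of IFNB1, against 0.021, 0 and 0.080 FPKM in agomir NC. At this level the groups overlapped and no fold change was computed.

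Sensors of double-stranded RNA were expressed at moderate levels in every library. IFIH1, which encodes the cytoplasmic sensor MDA5, stood at 10.99, 9.25 and 10.2 FPKM in the agomir group against 9.87, 11.2 and 13.3 FPKM in agomir NC. The highest value was that of agomir NC replicate 3 and the lowest that of agomir replicate 2, and the groups overlapped. For IFIH1 the log2 fold change, given with its standard error (SE) and the p of limma adjusted by Benjamini-Hochberg over all genes tested, was −0.16 ± 0.11 (SE, limma adjusted p = 0.620). DHX58, which encodes LGP2, a helicase that modulates signalling by MDA5 and RIG-I, stood at 6.68, 5.84 and 7.82 FPKM against 7.66, 6.33 and 9.10 FPKM. Replicate 2 was lowest and replicate 3 highest in both groups, and the log2 fold change was −0.17 ± 0.13 (SE, limma adjusted p = 0.687), with −0.045 without agomir NC replicate 3 and −0.29 without agomir NC replicate 2. TLR3, the endosomal receptor, was flatter, with 10.2, 10.7 and 9.69 FPKM against 10.4, 10.0 and 10.8 FPKM. Its groups overlapped and its log2 fold change was −0.030 ± 0.066 (SE, limma adjusted p = 0.909).

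The remaining members of this class varied little. EIF2AK2, which encodes the kinase PKR that halts translation when it binds double-stranded RNA, stood at 8.94, 8.77 and 8.87 FPKM in the agomir group against 8.46, 8.33 and 9.87 FPKM in agomir NC. The agomir libraries lay within the range of the agomir NC libraries, and the log2 fold change of EIF2AK2 was −0.00015, with a 95% interval from −0.17 to 0.17 in limma. ADAR, the enzyme that edits adenosines in double-stranded RNA, stood at 20.8, 19.6 and 20.5 FPKM against 20.2, 21.8 and 22.3 FPKM. Values of ADAR overlapped between the groups, with a log2 fold change of −0.077 ± 0.056 (SE, limma adjusted p = 0.657). TLR4, a receptor of bacterial lipopolysaccharide that also signals through TICAM1, ranged from 6.59 to 7.83 FPKM over the 6 libraries, with means of 7.22 ± 0.531 (SD, n = 3) and 7.18 ± 0.580 (SD, n = 3).

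Of the adaptors and kinases downstream of the sensors, MAVS, TICAM1 and TBK1 varied little and IKBKE varied more. MAVS, the mitochondrial adaptor of MDA5 and RIG-I, stood at 6.02, 6.25 and 5.97 FPKM in the agomir group against 5.98, 6.27 and 5.58 FPKM in agomir NC. The spread was small, the groups overlapped, and the log2 fold change of MAVS was 0.031 ± 0.075 (SE, limma adjusted p = 0.917). TICAM1, the adaptor of TLR3 also called TRIF, stood at 7.27, 7.68 and 7.43 FPKM against 7.54, 7.38 and 7.19 FPKM. The groups covered overlapping ranges, and the log2 fold change of TICAM1 was 0.016 ± 0.066 (SE, limma adjusted p = 0.955). TBK1, the kinase that phosphorylates IRF3, ranged from 8.56 to 10.0 FPKM. IKBKE, a kinase related to TBK1, stood at 12.1, 11.98 and 9.67 FPKM against 9.26, 11.5 and 9.32 FPKM. Agomir replicates 1 and 2 held the highest values of IKBKE, agomir replicate 3 lay among the agomir NC libraries, and the log2 fold change was 0.16 ± 0.11 (SE, limma adjusted p = 0.624).

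The receptor chains of type I interferon were among the more abundant members. IFNAR1 stood at 26.0, 29.1 and 29.0 FPKM in the agomir group against 26.3, 27.9 and 24.5 FPKM in agomir NC. Agomir replicates 2 and 3 were the highest, agomir replicate 1 lay inside the range of agomir NC, and the log2 fold change of IFNAR1 was 0.095 ± 0.065 (SE, limma adjusted p = 0.633). IFNAR2 stood at 20.8, 20.9 and 21.0 FPKM against 22.0, 22.1 and 22.0 FPKM. The 3 agomir libraries all lay below the 3 agomir NC libraries, and the values of IFNAR2 within each group were nearly equal. The log2 fold change of IFNAR2 was −0.073 ± 0.047 (SE, limma adjusted p = 0.612), and in the exact permutation test over the 20 labelings p was 0.1, the smallest that 3 against 3 libraries can give.

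The transcription factors included the most abundant member of all, IRF1, an interferon-inducible activator. IRF1 stood at 57.3, 55.4 and 57.8 FPKM in the agomir group against 54.4, 59.4 and 57.6 FPKM in agomir NC. The agomir libraries lay within the range of agomir NC, with a log2 fold change of −0.0068 ± 0.047 (SE, limma adjusted p = 0.975). IRF3, the factor activated directly downstream of the sensors, was next in level, with 39.4, 35.3 and 35.0 FPKM against 37.5, 33.5 and 38.7 FPKM. Its groups overlapped, and its log2 fold change was 0.00031, with a 95% interval from −0.15 to 0.15 in limma. IRF2, which competes with IRF1 for its binding sites, stood at 7.31, 7.98 and 7.90 FPKM against 7.15, 6.01 and 8.32 FPKM. The lowest and the highest value of IRF2 both belonged to agomir NC, and the log2 fold change was 0.11 ± 0.11 (SE, limma adjusted p = 0.744).

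Of the factors whose own genes are interferon-inducible, IRF7 and IRF9 followed the library pattern, and IRF1 and STAT2 did not. IRF7, which amplifies interferon transcription, stood at 5.59, 4.04 and 5.56 FPKM in the agomir group against 4.62, 4.86 and 6.39 FPKM in agomir NC. Agomir replicate 2 was lowest and agomir NC replicate 3 highest, and the log2 fold change was −0.059 ± 0.14 (SE, limma adjusted p = 0.918), with 0.082 without agomir replicate 2 and 0.073 without agomir NC replicate 3. IRF9, the DNA-binding part of the interferon-activated complex, stood at 11.8, 8.89 and 13.7 FPKM against 11.4, 11.1 and 16.6 FPKM. Replicate 2 was the lowest and replicate 3 the highest library of each group, and the log2 fold change of IRF9 was −0.18 ± 0.17 (SE, limma adjusted p = 0.752). STAT2, its partner, stood at 10.1, 10.4 and 9.77 FPKM against 9.28, 11.01 and 10.5 FPKM. No such order was seen for STAT2, the agomir libraries lay within the range of agomir NC, and the log2 fold change was −0.020 ± 0.075 (SE, limma adjusted p = 0.951).

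The ISG15 system, which attaches the ubiquitin-like protein ISG15 to other proteins, showed a large spread within each group. ISG15 stood at 22.1, 9.62 and 20.8 FPKM in the agomir group against 19.1, 10.6 and 28.8 FPKM in agomir NC. Replicate 2 of both groups lay at about the same low level, every other library was well above them, and the highest library held 3.00 times the FPKM of the lowest. The log2 fold change of ISG15 was −0.13 ± 0.36 (SE, limma adjusted p = 0.931), with a 95% interval from −0.94 to 0.68, and it was 0.24 without agomir replicate 2 and 0.20 without agomir NC replicate 3. USP18, which removes ISG15 from proteins and dampens receptor signalling, stood at 6.82, 5.16 and 7.21 FPKM against 5.89, 5.02 and 10.2 FPKM. For USP18 replicate 2 was lowest and replicate 3 highest in each group. HERC6, a ligase that attaches ISG15, ranged from 4.41 to 7.80 FPKM, and UBA7, which activates ISG15 for transfer, from 18.5 to 25.3 FPKM. Agomir NC replicate 3 was the highest library for all 4 members placed in this system, and agomir replicate 2 the lowest for 3 of them.

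The antiviral effectors spread the most. On the scale of log2(FPKM + 0.5), the highest library was at least 2-fold above the lowest for 9 of 41 members (22.0%), namely 8 effectors and ISG15, against 2.10% of all genes tested. The median SD within groups was 0.48 on this scale for the 12 effectors tested and 0.34 for the ISG15 system. For all genes tested it was 0.099, for the sensors 0.098, for the adaptors and kinases 0.077 and for the receptors 0.049. The transcription factors had 0.13, the PARP-family genes with DTX3L 0.113 and the nuclear-body and TRIM genes 0.109. The summed level of the effectors was 132.6, 102.3 and 136.4 FPKM with the agomir and 118.9, 108.2 and 182.7 FPKM in agomir NC. Agomir NC replicate 3 was the highest library for 10 of the 12 effectors and agomir replicate 2 the lowest for 8.

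MX1, a GTPase that blocks viral replication and the most abundant effector, stood at 32.1, 22.8 and 29.6 FPKM in the agomir group against 28.9, 24.1 and 49.0 FPKM in agomir NC. Agomir NC replicate 3 was far above all others, and replicate 2 was lowest in both groups. MX1 had a log2 fold change of −0.21 ± 0.22 (SE, limma adjusted p = 0.769), with a 95% interval from −0.71 to 0.28, and 0.080 without agomir NC replicate 3. MX2, a related GTPase, stood at 2.20, 0.949 and 4.72 FPKM against 2.26, 1.14 and 7.58 FPKM, which is the same order of replicates in both groups. Its log2 fold change was −0.28 ± 0.57 (SE, limma adjusted p = 0.899), the lowest point estimate among the members, and it was 0.18 without agomir replicate 2 and 0.36 without agomir NC replicate 3. RSAD2, which encodes viperin, an enzyme that makes a chain-terminating nucleotide, stood at 5.63, 2.04 and 6.59 FPKM against 3.32, 2.75 and 8.98 FPKM. Here too replicate 2 was lowest and replicate 3 highest in each group. RSAD2 had a log2 fold change of −0.031 ± 0.44 (SE, limma adjusted p = 0.987), with 0.43 without agomir replicate 2 and 0.44 without agomir NC replicate 3.

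**Figure D3:**
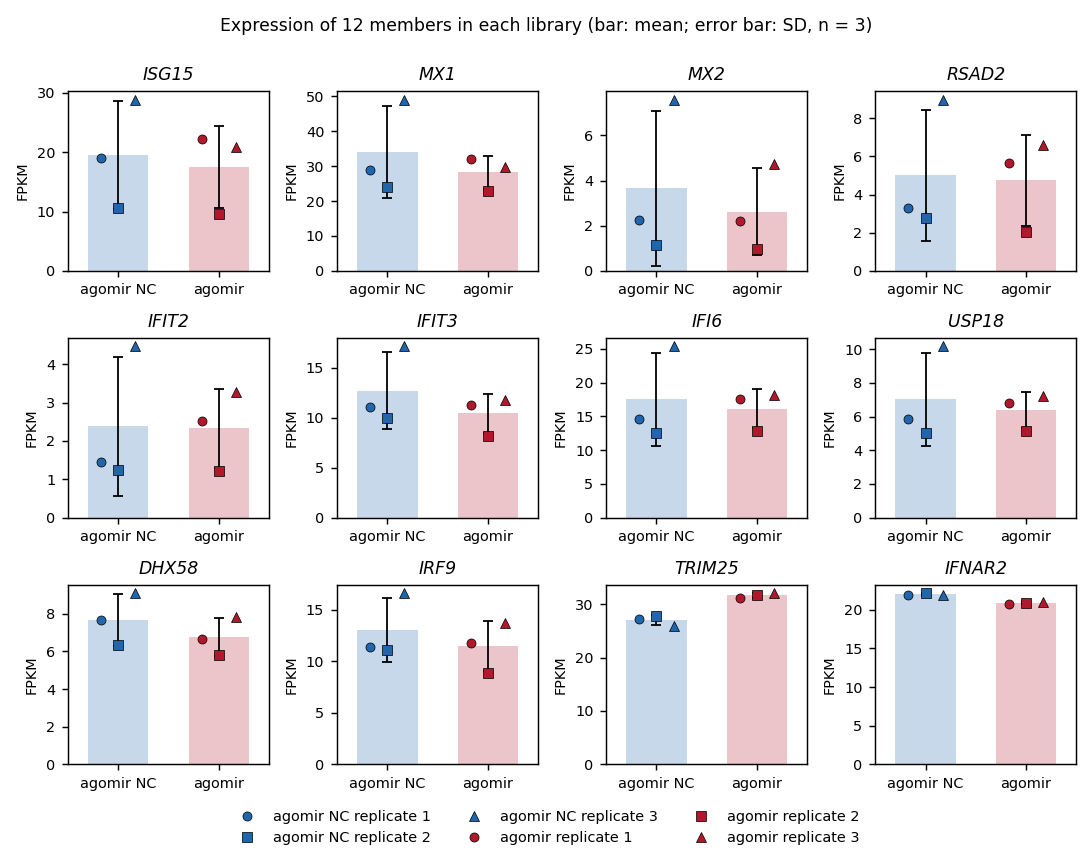
FPKM (vertical axes, from 0) of 12 members in each library by group (horizontal axes). Bars are group means, error bars SDs (n = 3), and symbols single libraries, shaped by replicate number. For ISG15 through IRF9 the range of values within each group exceeds the difference between the group means, and replicate 2 is the lowest library of each group, while TRIM25 and IFNAR2 show groups that do not overlap.

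IFIT3, which belongs to a family of proteins that bind foreign RNA and its complexes, stood at 11.3, 8.17 and 11.8 FPKM in the agomir group against 11.04, 9.91 and 17.1 FPKM in agomir NC. Agomir NC replicate 3 was highest, agomir replicate 2 lowest, and the log2 fold change of IFIT3 was −0.25 ± 0.19 (SE, limma adjusted p = 0.670), with −0.022 without agomir NC replicate 3 and −0.40 without agomir NC replicate 2. IFIT2 of the same family ranged from 1.22 to 4.47 FPKM, with replicate 2 lowest and replicate 3 highest in each group, whereas IFIT5 was higher and flatter, from 19.3 to 26.9 FPKM. IFI44, an interferon-induced gene, stood at 1.03, 0.109 and 0.979 FPKM against 0.843, 0.252 and 1.75 FPKM. Replicate 2 of both groups lay below all other libraries, and the log2 fold change of IFI44 was −0.24 ± 0.43 (SE, limma adjusted p = 0.882), with 0.20 without agomir replicate 2 and 0.15 without agomir NC replicate 3. ISG20, an exonuclease that degrades RNA, stood at 0.835, 0.406 and 0.899 FPKM against 0.145, 0.259 and 1.07 FPKM. The highest and the lowest value of ISG20 both belonged to agomir NC, and the log2 fold change was 0.38 ± 0.32 (SE, limma adjusted p = 0.704), the highest point estimate among the members. It was 0.13 without agomir NC replicate 1 and 0.77 without agomir NC replicate 3, and ISG20 lies at a level where the added 0.5 FPKM shrinks differences.

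The other effectors showed the same contrast of wide and narrow spread. IFI6, a small membrane protein, ranged from 12.6 to 25.3 FPKM, with group means of 16.1 ± 2.94 (SD, n = 3) for the agomir and 17.5 ± 6.85 (SD, n = 3) for agomir NC. CMPK2, a mitochondrial nucleotide kinase that lies beside RSAD2 in mammalian genomes, ranged from 1.84 to 4.94 FPKM, with group means of 2.94 ± 1.00 and 3.01 ± 1.68 (SD, n = 3). For both genes agomir NC replicate 2 was the lowest library and agomir NC replicate 3 the highest. IFI35 and RTP4 were flat, with ranges of 12.5 to 14.4 FPKM and 19.7 to 22.8 FPKM, and agomir NC replicate 3 was the highest library for neither.

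The PARP-family genes held the only member lower with the agomir at an unadjusted p under 0.05, which did not pass the adjusted threshold. PARP9, a macrodomain protein that works with the ubiquitin ligase DTX3L in interferon signalling, stood at 9.05, 8.03 and 8.31 FPKM in the agomir group against 9.93, 9.65 and 10.7 FPKM in agomir NC. All 3 agomir libraries lay below all 3 agomir NC libraries. The log2 fold change of PARP9 was −0.24 ± 0.072 (SE, limma p = 0.00818, Benjamini-Hochberg adjusted p = 0.321), and the exact permutation p was 0.1, the smallest possible here. DTX3L did not share the difference, with 15.4, 14.0 and 14.8 FPKM against 14.7, 13.3 and 16.4 FPKM and groups that overlapped. The difference between the genes was not tested. PARP14 ranged from 18.7 to 24.8 FPKM and PARP12 from 6.86 to 8.97 FPKM, each lowest in agomir replicate 2 and highest in agomir NC replicate 3.

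TRIM25 was the only member higher with the agomir at an unadjusted p under 0.05, and it did not pass the adjusted threshold. This ubiquitin ligase acts on RIG-I and on ISG15 targets, and it stood at 31.2, 31.7 and 32.0 FPKM in the agomir group against 27.3, 27.9 and 26.0 FPKM in agomir NC. The 3 agomir libraries lay close to each other and above all agomir NC libraries, and TRIM25 did not follow the order of the libraries seen for ISG15 and MX1. The log2 fold change of TRIM25 was 0.22 ± 0.048 (SE, limma p = 0.00109, Benjamini-Hochberg adjusted p = 0.218), and the exact permutation p was 0.1. TRIM21, a cytoplasmic antibody receptor and ubiquitin ligase, ranged from 8.004 to 10.6 FPKM. PML, which organises nuclear bodies, ranged from 16.97 to 20.7 FPKM, and SP100, another nuclear-body protein, from 0.305 to 0.693 FPKM, with overlapping groups for all of these.

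Other genes of RNA and DNA sensing, interferon signalling and interferon response were looked up from a list of 117 symbols, of which 103 were in the table and 77 were tested. At an unadjusted p under 0.05 in limma 1 of the 77 was higher with the agomir, against 6.63% of all genes tested, and 4 were lower, against 4.31%. Of these 4 genes 3 are described here, and none of the 77 passed the Benjamini-Hochberg adjusted threshold. The median log2 fold change of the 77 genes was −0.036, the same size as that of the members in the same 6 libraries. How far this median rests on single libraries was not tested. LAP3, an interferon-inducible aminopeptidase, stood at 66.5, 69.2 and 67.4 FPKM in the agomir group against 71.2, 75.5 and 78.9 FPKM in agomir NC, without overlap, with a log2 fold change of −0.15 ± 0.048 (SE, limma p = 0.0116, adjusted p = 0.344, exact permutation p = 0.1). SP110, a nuclear-body protein, stood at 4.21, 4.63 and 4.20 FPKM against 4.91, 4.90 and 5.31 FPKM. These groups too did not overlap, with a log2 fold change of −0.19 ± 0.082 (SE, limma p = 0.0405, adjusted p = 0.436, exact permutation p = 0.1).

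CCL5, a chemokine, stood at 27.2, 23.3 and 20.8 FPKM in the agomir group against 27.0, 25.8 and 30.0 FPKM in agomir NC. Agomir replicate 1 lay among the agomir NC libraries, and the log2 fold change of CCL5 was −0.22 ± 0.094 (SE, limma p = 0.0460, adjusted p = 0.447, exact permutation p = 0.3). The higher gene was TYK2, a kinase bound to IFNAR1, with 14.0, 14.9 and 14.5 FPKM against 13.6, 13.2 and 12.7 FPKM. Its groups did not overlap, and its log2 fold change was 0.13 ± 0.058 (SE, limma p = 0.0499, adjusted p = 0.456, exact permutation p = 0.1). The 5 most abundant genes of this list were B2M and TAPBP of antigen presentation, the interferon gamma receptor chain IFNGR2, the secreted protein LGALS3BP and the antiviral membrane protein IFITM3. Mean levels with the agomir and agomir NC were 487.1 ± 29.7 and 483.8 ± 20.7 FPKM for B2M and 146.9 ± 0.954 and 144.5 ± 7.55 FPKM for TAPBP (SD, n = 3). They were 132.4 ± 2.79 and 130.5 ± 2.15 FPKM for IFNGR2, 115.0 ± 3.51 and 123.8 ± 6.24 FPKM for LGALS3BP, and 81.7 ± 2.16 and 86.0 ± 3.61 FPKM for IFITM3 (SD, n = 3). None of these 5 genes had an unadjusted p under 0.05 in limma.

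Among the other interferon-stimulated genes agomir NC replicate 3 was again the highest library and agomir replicate 2 the lowest by median, while agomir NC replicate 2 was not low. Of 40 such genes tested, agomir NC replicate 3 was the highest library for 25 (62.5%) and agomir replicate 2 the lowest for 15 (37.5%). Their median deviation was −0.0063, −0.060 and 0.010 with the agomir and −0.043, −0.0030 and 0.13 with agomir NC, on the log2 scale. The OAS1 genes, which make the messenger that activates RNase L when double-stranded RNA is bound, are near-identical copies whose values may share reads. Their summed level was 20.04, 10.1 and 19.0 FPKM with the agomir and 17.7, 13.7 and 34.9 FPKM in agomir NC. Agomir NC replicate 3 was the highest and agomir replicate 2 the lowest library for all 3 copies tested. RIG-I, listed under its older symbol DDX58, stood at 5.46, 4.39 and 5.91 FPKM against 5.47, 4.31 and 7.28 FPKM, with replicate 2 lowest and replicate 3 highest in both groups.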

How the data were processed

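RNA sequencing of 6 libraries, 3 transfected with a bta-miR-484 agomir and 3 with agomir NC for 48 h, was used as gene-level FPKM values that the authors deposited. The submitters' processing notes name fastp, HISAT2 and StringTie and the ARS-UCD1.2 genome, with no versions. Depth per library was not given in the sources used here. Groups and replicate numbers came from the sample titles.

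Values were analysed as log2(FPKM + 0.5) for genes whose mean over the 6 libraries was 0.5 FPKM or more. The groups were compared with the two-sided moderated test of limma 3.58.1 in R 4.3.3 with a variance trend, and p-values were adjusted over all 12422 genes tested by the Benjamini-Hochberg method. The procedure was tested on simulated data. Single members were also compared by an exact two-sided permutation test over the 20 labelings, whose smallest p is 0.1. Fold changes are on the log2(FPKM + 0.5) scale, which understates changes of low genes.

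The members and all lists were chosen with earlier results of these data known. Values in every library are given for the sensors and adaptors IFIH1, DHX58, TLR3, EIF2AK2, ADAR, MAVS and TICAM1. They are also given for ISG15, MX1, RSAD2, IRF7, IRF9, STAT2, IFNAR1 and IFNAR2, for members with an unadjusted p under 0.05, for the 5 largest rises and the 5 largest falls, and for the 5 members with the highest mean FPKM. Of the other pathway genes, those with an unadjusted p under 0.05 and the 5 with the highest mean were named. The values of 1 of these genes are not reported here. Further genes, such as USP18, DTX3L, FCER1G, DCN, ENG, CIDEA and the OAS1 copies, were picked after their values were seen.

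Alternatives were other pseudocounts, other filters, median-ratio and quantile scaling, a fit without the variance trend, limma array weights, a block for replicate number, removal of a trend with gene span, and leaving out each library. RefSeq gene spans (ARS-UCD2.0, a different build) were used, which gave a span for 11471 of the genes tested and for all 41 members. A planned search of promoters for the interferon-stimulated response element was not run, and no sequence is printed.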

Additional observations from a re-analysis of the deposited data

How the results depend on the processing

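Under all 18 alternatives to the fit reported, no member passed an adjusted p of 0.05 (limma, Benjamini-Hochberg), and the smallest adjusted p of a member lay between 0.202 and 0.664. TRIM25 was higher at an unadjusted p under 0.05 in every alternative, with log2 fold changes from 0.19 to 0.24. PARP9 kept its direction, from −0.29 to −0.17, and was lower at that p in all but 1, the removal of agomir replicate 2 with agomir NC replicate 3. The count of lower members was 2 with quantile normalization, where PARP14 joined, beside 629 of 12422 genes. It was also 2 with the gene span trend removed, again with PARP14, beside 660 of 11471 genes. Leaving out each library in turn gave 1 to 3 higher members, 1 to 4 lower members, and a median log2 fold change of the members from −0.11 to 0.042.

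Another pair of alternatives was chosen after seeing the data. Removing agomir replicate 2 and agomir NC replicate 3 takes out the lowest library of one group and the highest of the other, and so moves the interferon-stimulated members up by construction. It gave 10 higher members and 0 lower ones, with a median of 0.083, beside 586 higher and 365 lower of 12446 genes. Removing replicate 2 of both groups gave 1 and 1, with a median of −0.041, beside 462 higher and 462 lower of 12413 genes.

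With the replicate number as a block the count of lower members was 4 (PARP9, PARP14, IFIT3 and UBA7), the count of higher members was 1, and the median was −0.036, beside 738 higher and 522 lower of 12422 genes. The deviations of same-numbered samples from their group means correlated over all genes tested by −0.051, 0.053 and 0.039. Over the 41 members they correlated by −0.22, 0.91 and 0.90, and agomir replicate 1 correlated best with agomir NC replicate 3. Whether equal numbers mark a shared calf, culture or day is not given in the sources used here and was not tested. The block changed no call of a member at the adjusted threshold, while over all genes the count past it was 0 in place of 1. The unadjusted p of limma fell with the block from 0.63 to 0.072 for MX2 and from 0.22 to 0.036 for IFIT3. For MX1 it fell from 0.36 to 0.15. For other members it rose, from 0.20 to 0.26 for ADAR, from 0.15 to 0.24 for IFNAR2 and from 0.0011 to 0.0037 for TRIM25.

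Of 448 alternative values for the 25 named members, 396 kept their direction and 52 did not, and no member was past the adjusted threshold in any of these fits. The cause was not tested, apart from the construction named above. Without agomir replicate 2 and agomir NC replicate 3 the log2 fold change was 0.051 for DHX58, 0.081 for EIF2AK2, 0.58 for IFI44, 0.0083 for IFIH1, 0.14 for IFIT3, 0.018 for IRF1, 0.21 for IRF7, 0.17 for IRF9, 0.57 for ISG15, −0.029 for MAVS, 0.22 for MX1, 0.82 for MX2, 0.90 for RSAD2 and −0.020 for TICAM1. Without replicate 2 of both groups it was 0.040 for IRF1, −0.021 for IRF2, −0.037 for IRF3, 0.032 for IRF7, 0.13 for RSAD2, 0.011 for STAT2 and −0.0026 for TICAM1. With array weights it was 0.0084 for EIF2AK2, −0.0013 for IRF3 and 0.11 for RSAD2. It was −0.015 for IRF3 with median-ratio scaling, −0.0096 for IRF3 and −0.0054 for TICAM1 with quantile normalization, and 1.185e-05 for EIF2AK2 with a pseudocount of 0.1.

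Leaving out each library in turn turned the direction of 14 of the 25 named members at least once. The lowest and highest log2 fold changes were −0.042 to 0.074 for EIF2AK2, −0.64 to 0.20 for IFI44, −0.042 to 0.022 for IRF1, −0.060 to 0.042 for IRF3, −0.14 to 0.082 for IRF7, −0.31 to 0.0041 for IRF9 and −0.50 to 0.24 for ISG15. They were −0.010 to 0.068 for MAVS, −0.43 to 0.080 for MX1, −0.79 to 0.36 for MX2, −0.33 to 0.44 for RSAD2, −0.086 to 0.031 for STAT2, −0.0036 to 0.034 for TICAM1 and −0.065 to 0.0039 for TLR3. Others kept their direction over wide ranges, with −0.26 to −0.053 for IFIH1, −0.29 to −0.045 for DHX58, −0.12 to −0.050 for ADAR, −0.40 to −0.022 for IFIT3, 0.047 to 0.15 for IFNAR1, 0.11 to 0.26 for IKBKE, 0.0011 to 0.22 for IRF2 and 0.13 to 0.77 for ISG20.

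With 3 libraries a group and no depth given and no match of replicates to calves or cultures, differences smaller than the spread between libraries could not be detected, which for ISG15, MX2 and RSAD2 was wide. The planned promoter motif count was not run.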

Other observations

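The order of the 6 libraries for MX1, from agomir NC replicate 3 at the top to agomir replicate 2 at the bottom, was shared by 28 of the 12422 genes tested, MX1 included. The search was made after the values were seen. For 8 of these 28 genes the highest library was at least 1.5-fold above the lowest on the scale of log2(FPKM + 0.5). They were the members MX1, ISG15, IFI44 and HERC6, the sensor genes OAS1X and OAS1Y, LOC100298356, and a newly assembled gene. LOC100298356 stood at 7.87, 3.97 and 7.21 FPKM in the agomir group against 7.11, 4.62 and 13.1 FPKM in agomir NC, so that replicate 2 of both groups lay below the other libraries. CXCL10, an interferon-inducible chemokine, was low, with 0.321, 0 and 1.31 FPKM in the agomir group against 0.291, 0.176 and 2.15 FPKM in agomir NC. Replicate 2 held the lowest and replicate 3 the highest value of CXCL10 in both groups, and the groups overlapped.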
